A study of Mus musculus with 14 samples.

Results

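The genes described here are the protein-coding subunits of respiratory complexes I, III and IV and of ATP synthase (complex V) in the livers of Abcb11-/- and wild-type mice. They were chosen by name and chromosome alone: every protein-coding gene on the mitochondrial chromosome, and every protein-coding gene whose symbol starts with Nduf and a subunit letter and number, Uqcr, Cox4 to Cox8 with a subunit letter, or Atp5. That gave 92 of the 54532 rows of the table of all genes. Of these, 13 are encoded in mitochondrial DNA and 79 in the nucleus. Complex I holds 7 mitochondrial and 35 nuclear members, complex III 1 and 8, complex IV 3 and 18, and complex V 2 and 18. Ndufa4 and Ndufa4l2 are counted with complex IV, in which the Ndufa4 protein is found. A filter on low counts left 88 members in the tests, 13 mitochondrial and 75 nuclear. The other 4 are Cox8b with 39 counts over all libraries, and Cox8c, Cox7b2 and a second row named Atp5o, each listed at 0 in every library.

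The 14 RNA-seq libraries, of 3 mice per group by the series' design, came from frozen liver of C57BL/6J mice aged 52 weeks. Abcb11 encodes the bile salt export pump of the hepatocyte. The groups were 3 libraries of Abcb11-/- males (KO males), 3 of wild-type (WT) males, 3 of tumour tissue and 3 of non-tumour tissue of Abcb11-/- females (tumour and non-tumour KO females), and 2 of WT females, which carry the replicate numbers 2 and 3. A replicate 1 of the WT females was not analysed here. KO males are labelled only as liver, so whether their tissue held tumour is not stated. The labels do not state whether tumour and non-tumour tissue of 1 number came from 1 animal, nor which cells the knockout covers beyond the genotype. That each library is a separate mouse is not stated sample by sample, so p-values measure the spread between libraries.

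Oxidative phosphorylation passes electrons from NADH and succinate through complexes I to IV to oxygen, and ATP synthase uses the proton gradient this builds. Complex II is wholly nuclear, while the other complexes are assembled from subunits of both genomes. Mitochondrial genes are transcribed as long polycistronic RNAs and cut into single messages, whereas the nuclear subunits are transcribed gene by gene, translated on cytosolic ribosomes and imported. Hepatocytes are rich in mitochondria and rely on this chain.

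Library totals ran from 14745140 to 19480538 counts. Abcb11 itself had 850 to 1832 counts in KO male and 4504 to 5907 in WT male libraries, and 355 to 605 counts in the 6 KO female libraries against 4333 and 10139 in those of WT females. Hepatocyte markers were abundant in all libraries, with 8 marker genes summing to 27740 to 89340 CPM, the counts scaled to a common library total. Several libraries stood apart. KO male 3, non-tumour 1 and non-tumour 3 had the smallest mitochondrial shares of counts. WT males had 15308 to 17520 genes with a count, against 18743 to 22414 in the other groups, and mitochondrial ribosomal RNA took 1.47% to 2.91% of their counts, against 0.156% to 0.592% elsewhere. Of the mitochondrial members' counts, mt-Co1 took 27.5% to 31.4% in WT males and 35.3% to 46.0% elsewhere. What part these library differences have in any comparison with WT males was not tested. In bulk tissue, fewer cells of a type and less RNA per cell cannot be told apart.

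The mitochondrial members took a large and variable part of each library. Their share of all counts was 35.0%, 33.1% and 15.3% in KO males, against 26.4%, 32.3% and 39.1% in WT males. In KO females it was 32.5%, 30.0% and 28.7% in tumour and 18.8%, 33.5% and 16.5% in non-tumour tissue, against 34.2% and 32.9% in WT females. The low libraries fell in the KO male and non-tumour groups, whose other libraries lay within the range of the WT libraries. The 79 nuclear members together took 1.01%, 0.925% and 1.47% in KO males, against 1.06%, 1.06% and 0.693% in WT males. Their share was 0.757%, 1.10% and 1.08% in tumour and 0.934%, 0.960% and 1.29% in non-tumour tissue of KO females, against 0.668% and 0.444% in WT females. All 6 KO female libraries thus lay above both WT female libraries for the nuclear members, while the groups of males overlapped.

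Set within each library, the level of the mitochondrial members over the nuclear ones hardly depends on the scaling between libraries. The measure is the mean log2(CPM + 1) of the 13 mitochondrial members minus that of the 79 nuclear members. Of the 13, mt-Co2, mt-Atp6, mt-Co3, mt-Nd3 and mt-Nd4l share nearly all their sequence with nuclear copies, as described below. The measure without these 5 was not computed, so what the copies contribute to it was not tested. It was 5.81, 5.52 and 5.28 in tumour and 4.74, 5.57 and 4.12 in non-tumour tissue of KO females, against 6.32 and 6.87 in WT females. Neither KO female tissue overlapped WT females. The difference of means was -1.78 between non-tumour KO females (4.81 ± 0.73, SD, n = 3) and WT females (6.59 ± 0.39, SD, n = 2), larger than either SD. Between tumour tissue (5.54 ± 0.26, SD, n = 3) and WT females it was -1.06, and with the median over members in place of the mean -0.50. Tumour exceeded non-tumour tissue by 0.73, with the libraries overlapping. In males the measure was 5.53, 5.57 and 4.04 in KO and 5.09, 5.39 and 6.26 in WT libraries. The groups of males overlapped, and the difference of -0.53 was within 1 SD of either group (5.05 ± 0.87 in KO and 5.58 ± 0.60 in WT males, SD, n = 3 each). Without KO male 3 it was -0.03. WT males differed from WT females by -1.02 without overlap, but by -0.52 with overlap when the median over members was used. KO males differed from non-tumour KO females by 0.24 with overlap. Counted directly, there were 34.6, 35.8 and 10.4 mitochondrial counts for each nuclear member count in KO males, against 24.9, 30.3 and 56.5 in WT males. The same ratio was 42.9, 27.3 and 26.7 in tumour and 20.1, 34.9 and 12.7 in non-tumour tissue, against 51.1 and 74.1 in WT females. Both the ratio and the log2 measure were highest in WT female 3.

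**Figure D1:**
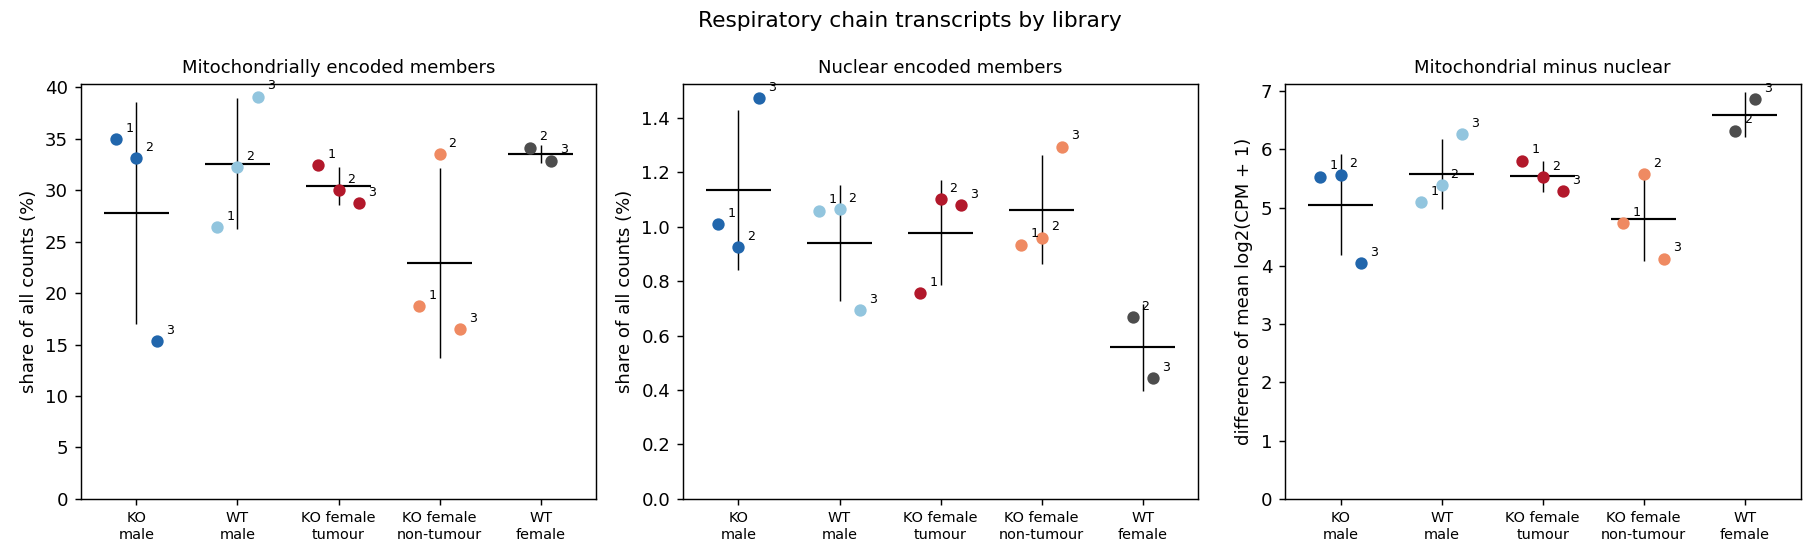
The panels show, for each of the 14 libraries, the percent of counts in the 13 mitochondrial members, the percent in the 79 nuclear members, and the mean log2(CPM + 1) of the mitochondrial minus that of the nuclear members. Points carry replicate numbers, and lines give the mean ± SD of each group. KO male 3, non-tumour 1 and non-tumour 3 are low in the first panel at 15.3%, 18.8% and 16.5%, and both WT female libraries lie lowest in the second.

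Among the mitochondrial members, levels per kilobase of the deposited gene length (TMM-scaled CPM per kb, averaged over all libraries) differed widely, although most of these genes lie on 1 precursor. The level was 72400 for mt-Co1, the catalytic subunit of complex IV, 42930 for mt-Cytb, the only mitochondrial subunit of complex III, and 40510 for mt-Nd1, a core membrane subunit of complex I. The other core subunits of the complex I membrane arm had 36090 for mt-Nd2, 18070 for mt-Nd4, 13160 for mt-Nd5 and 11550 for mt-Nd6, the only member on the light strand. Low levels per kb were found for the neighbouring genes mt-Co2 (1078), mt-Atp6 (1323), mt-Co3 (903), mt-Nd3 (347) and mt-Nd4l (869). The lowest, at 23.1, was mt-Atp8, whose gene overlaps mt-Atp6.

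The 5 low neighbours share their sequence with a nuclear copy of mitochondrial DNA. In the GENCODE vM21 annotation of GRCm38, 7 unprocessed pseudogenes lie in 1 stretch at chr1:24611535-24616197 on the minus strand, over 4663 bases. Of all 125-base windows of each member, the shorter of the read lengths the design text gives, 99.8% of those of mt-Co3, 99.5% of mt-Co2 and of mt-Atp6, 98.3% of mt-Nd4l and 97.3% of mt-Nd3 had an exact copy in another transcript. That share was 60.0% for mt-Nd4, 26.7% for mt-Co1, 0.5% for mt-Nd2 and 0 for mt-Nd1, mt-Nd5, mt-Nd6, mt-Cytb and mt-Atp8. The members with over 90% of windows copied had 347 to 1323 CPM per kb, below all others but mt-Atp8, so the counting of reads that map to both places cannot be told apart from expression for them. The copy corresponding to the place of mt-Atp8 is part of no annotated transcript, and its 233 bases between the copies of mt-Co2 and mt-Atp6 were not searched. The stretches below show how close the copies are. Positions count from 1 at the first base of the gene, capitals mark the bases that differ, and the pseudogene strand is the minus strand of chromosome 1. mt-Co1 and its copy Gm29216 differ only at the start of the copied stretch (T1056A, C1057T, A1059G, A1060G, C1062A, A1066T), mt-Nd3 and Gm28438 at T3C, and the stretches of mt-Nd4l and Gm10222 are identical.
mt-Co1, chrM:6381-6470: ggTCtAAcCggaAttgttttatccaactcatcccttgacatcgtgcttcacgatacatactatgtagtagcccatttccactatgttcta
Gm29216, chr1:24616108-24616197: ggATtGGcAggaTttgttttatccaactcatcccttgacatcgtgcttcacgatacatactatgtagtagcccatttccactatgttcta
mt-Nd3, chrM:9459-9548: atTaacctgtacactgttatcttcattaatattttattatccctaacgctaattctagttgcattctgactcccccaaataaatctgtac
Gm28438, chr1:24613030-24613119: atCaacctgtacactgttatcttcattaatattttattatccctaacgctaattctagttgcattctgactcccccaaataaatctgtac
mt-Nd4l, chrM:9979-10068: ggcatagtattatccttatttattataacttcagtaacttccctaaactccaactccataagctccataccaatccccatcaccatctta
Gm10222, chr1:24612509-24612598: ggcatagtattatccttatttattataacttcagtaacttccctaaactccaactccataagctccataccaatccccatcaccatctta

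The pseudogene rows held counts in every library. Gm10222 took 10.3% to 72.4% of the counts of mt-Nd4l and Gm10222 together, with a median of 27.8%. The matching shares were 12.7% to 24.9% for the copy of mt-Nd3, 15.6% to 51.3% for that of mt-Co3, 24.6% to 53.4% for that of mt-Atp6 and 25.4% to 50.3% for that of mt-Co2. For the partial copies of mt-Nd4 and mt-Co1 they stayed at or below 1.32% and 1.48%. For mt-Nd4l, the comparisons described in detail below are therefore given for the gene alone and summed with its copy. The same is done for mt-Co3 where it had the smallest p.

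**Figure D2:**
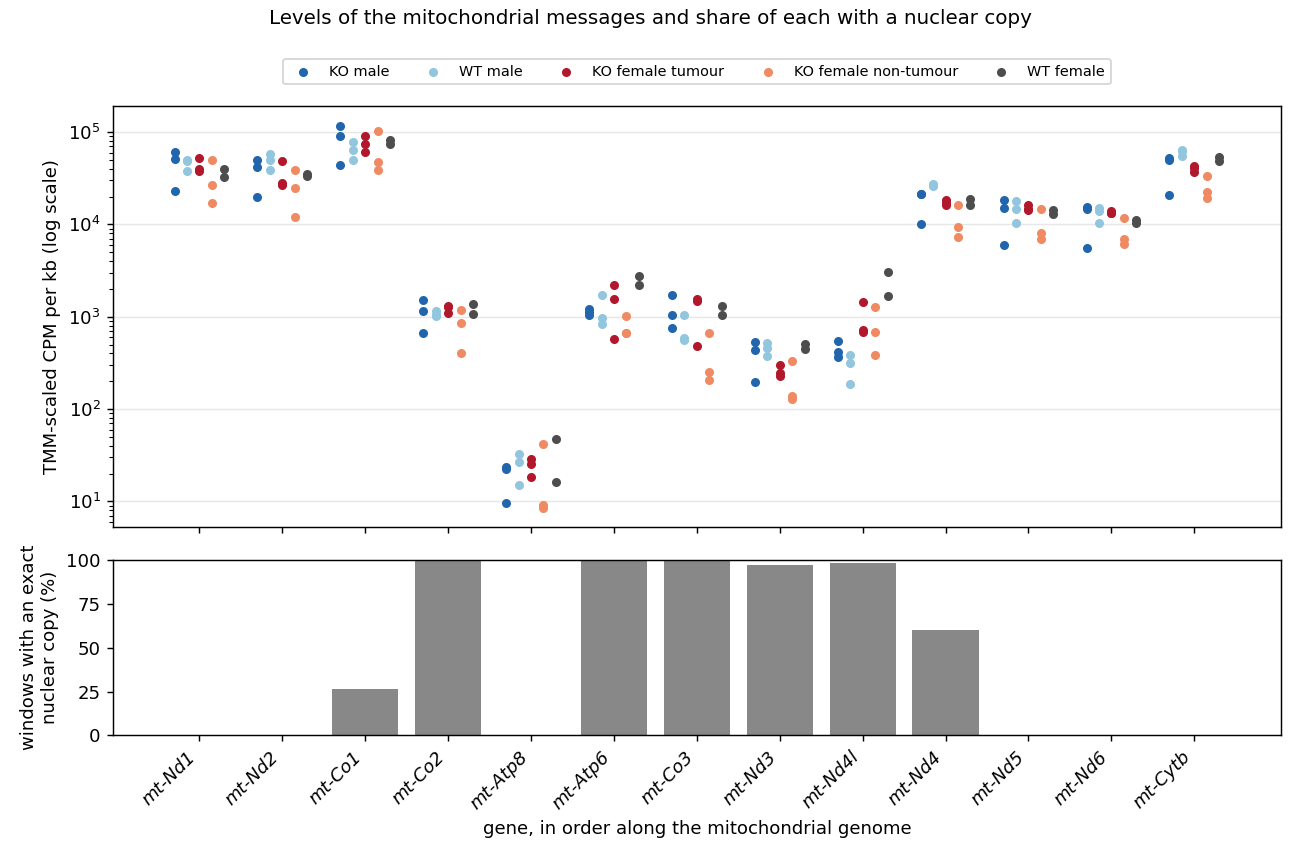
The upper panel plots TMM-scaled CPM per kb of each mitochondrial member on a log axis, 1 point per library, in the order of the genes on the mitochondrial chromosome. The lower panel plots the percent of its 125-base windows that have an exact copy in another annotated transcript. The 5 genes with 97.3% to 99.8% of windows copied lie at 347 to 1323 CPM per kb, while mt-Co1 lies at 72400.

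In non-tumour tissue of KO females, 7 nuclear subunits of complexes I and IV and of ATP synthase were higher than in WT females, and no mitochondrial member passed the test. By edgeR's quasi-likelihood test at a Benjamini-Hochberg adjusted p under 0.05, 7 of 88 members (7.95%) were higher and 0 lower, where 4.16% of all 17874 genes tested were called. The median log2 fold change was 0.93 over the 75 nuclear members, -0.68 over the 13 mitochondrial members and 0.00 over all genes. Those 13 include the 5 members with nearly all windows copied on chromosome 1. All 13 mitochondrial values were negative and 73 of the 75 nuclear ones positive. Libraries of the groups did not overlap for 65 of 75 nuclear and 5 of 13 mitochondrial members, where with 3 against 2 libraries 49.7% of all genes tested did not overlap. By complex, those called were 4 of 35 nuclear members of complex I (median 0.89), 0 of 8 of complex III (0.82), 1 of 15 of complex IV (1.11 without Cox6a2, which is at 0 in WT females) and 2 of 17 of ATP synthase (1.06).

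Ndufa12, an accessory subunit of the matrix arm of complex I (chr10:94198720-94221443), had the smallest p. It had 22.6, 22.9 and 41.6 TMM-scaled CPM in non-tumour KO females, against 13.0 and 9.49 in WT females. All KO values lay above both WT values, with non-tumour 3 well above the other non-tumour libraries. The log2 fold change was 1.37 ± 0.27 (SE), with an edgeR adjusted p of 0.0176. Ndufa8, an accessory subunit on the intermembrane side of complex I (chr2:36036326-36049406), had 139, 114 and 97.8 CPM in non-tumour KO females, against 63.2 and 36.8 in WT females. The groups did not overlap, and the log2 fold change was 1.23 ± 0.29 (SE; edgeR adjusted p = 0.0313). Ndufa10, a membrane arm accessory subunit of the nucleoside kinase family (chr1:92439010-92473860), had 129, 154 and 135 CPM against 68.7 and 60.4, with little spread within either group. Its log2 fold change was 1.11 ± 0.27 (SE; edgeR adjusted p = 0.0338). Ndufc2, another membrane arm subunit, had 44.9, 46.8 and 65.4 CPM against 26.1 and 12.6.

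Outside complex I, Cox7b, a small X-linked subunit of cytochrome c oxidase (chrX:106015700-106022450), had 195, 218 and 215 CPM in non-tumour KO females, against 118 and 66.9 in WT females. WT female 3 lay far below WT female 2, and both lay below all KO values (log2 fold change 1.18 ± 0.29, SE; edgeR adjusted p = 0.0375). Atp5g1, 1 of several genes for the rotor ring subunit c of ATP synthase, had 161, 169 and 153 CPM against 91.4 and 64.0 (edgeR adjusted p = 0.0464). Atp5o, which encodes the stalk subunit that ties the catalytic head to the membrane part, had 72.9, 93.3 and 95.4 CPM against 47.7 and 32.3 (edgeR adjusted p = 0.0468). WT female 3 was the lowest of all 5 libraries for each of the 7 called members, and without it no member was called. Without non-tumour 1 or without non-tumour 3, 1 member was called, a nuclear one. Without WT female 2 there were 4 calls, all nuclear and higher, and without non-tumour 2 there were 4 nuclear members higher and 3 mitochondrial members lower.

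The mitochondrial member with the smallest p in this comparison was mt-Atp6, the proton channel subunit of ATP synthase. It had 454, 691 and 456 CPM in non-tumour KO females, against 1881 and 1486 in WT females, without overlap, and its log2 fold change of -1.66 ± 0.46 (SE) missed the threshold (edgeR adjusted p = 0.0566). For mt-Nd4l the values were 205, 375 and 113 CPM against 913 and 502, with a log2 fold change of -1.61 ± 0.47 (SE; edgeR adjusted p = 0.0652), and summed with its copy -1.54 ± 0.54 (SE; edgeR adjusted p = 0.113). Among the members without nuclear copies, mt-Cytb had 25670, 38460 and 22090 CPM against 61750 and 54970. These groups did not overlap either, and the log2 fold change was -1.02 ± 0.45 (SE; edgeR adjusted p = 0.201). The value of mt-Nd1 was -0.22. Other settings and tools did call mitochondrial members lower here. By edgeR, mt-Nd3, mt-Nd4l and mt-Co3 were lower without non-tumour 2, these 3 and mt-Atp6 with no filter on low counts, and mt-Atp6 with the 2 groups fitted alone. DESeq2 called 5 lower, mt-Atp6, mt-Co3, mt-Nd3, mt-Nd4l and mt-Cytb, beside 32 nuclear members higher and 1 lower, where it called 10.8% of all genes. By limma-voom the same were lower but for mt-Cytb, beside 46 nuclear members higher and 1 lower, where it called 18.8% of all genes. Of these 5 mitochondrial members, all but mt-Cytb have nearly all of their windows copied on chromosome 1. Of the non-tumour libraries, 1 and 3, both low in mitochondrial share, lay below library 2 for all 13 members.

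Tumour tissue of KO females gave a like picture for the nuclear members against the same WT female libraries, and a median near 0 for the mitochondrial ones. Here 17 of 88 members (19.3%) were higher and 0 lower by edgeR, with 9.61% of all genes called. Since both tissues were set against the same WT females, the counts of the 2 comparisons are not independent. The median log2 fold change was 0.95 over nuclear members, -0.02 over mitochondrial members (0.02 with scaling on the non-mitochondrial genes) and 0.03 over all genes. The members called were 11 of 35 in complex I, 0 of 8 in complex III, 4 of 15 in complex IV and 2 of 17 in ATP synthase. Without WT female 3 no member was called, without tumour 2 there were 4 and without tumour 3 there were 2.

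Ndufa8 led, with 131, 176 and 152 CPM in tumour tissue against 63.2 and 36.8 in WT females. Each tumour value was more than the higher WT value by a wide margin, with a log2 fold change of 1.61 ± 0.30 (SE; edgeR adjusted p = 0.00504). Ndufa10 had 130, 144 and 223 CPM against 68.7 and 60.4 (1.36 ± 0.27, SE; edgeR adjusted p = 0.00758), tumour 3 standing above the other tumours. Ndufa5, an accessory subunit of the matrix arm, had 120, 131 and 154 CPM against 75.2 and 55.3 (edgeR adjusted p = 0.0194). In complex IV, Cox6b1, which lies on the intermembrane side where the monomers of the dimer meet, had 198, 221 and 310 CPM against 126 and 82.6 (edgeR adjusted p = 0.0198). Cox5b, a zinc-binding subunit on the matrix side, had 179, 216 and 268 CPM against 117 and 84.0 (edgeR adjusted p = 0.0262). In each of these 3 genes the groups were separate and tumour 3 was the highest library.

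Set directly against non-tumour tissue, tumour tissue showed 0 called members by edgeR, as it showed 0% of all genes. An unadjusted p under 0.05 was found for 2 of 88 members and for 6.81% of all genes. DESeq2 called 0 members and 0.151% of all genes, and limma-voom 0 members and 0% of all genes. The median log2 fold change was -0.08 over nuclear and 0.58 over mitochondrial members, all 13 of which were positive, against -0.01 over all genes. The smallest p belonged to mt-Co3, a core subunit of complex IV, with 1223, 1159 and 376 CPM in tumour and 199, 523 and 161 in non-tumour tissue. The libraries overlapped, and the log2 fold change was 1.64 ± 0.52 (SE; edgeR adjusted p = 0.665). Its copy Gm28437 took 15.6% to 35.4% of their summed counts in tumour and 40.6% to 41.6% in non-tumour tissue. For the sum of mt-Co3 and its copy the log2 fold change was 1.21 ± 0.48 (SE; edgeR adjusted p = 0.671). Atp5f1, a stator subunit of ATP synthase, had 83.0, 94.5 and 89.7 CPM in tumour and 140, 114 and 284 in non-tumour tissue (-1.01 ± 0.43, SE; edgeR adjusted p = 0.714). Those groups did not overlap, and non-tumour 3 was far above the rest. For mt-Atp6 the log2 fold change was 0.88 ± 0.42 (SE), for mt-Nd6 0.71 ± 0.40 and for Cox7a1 1.83 ± 0.88, the last with 0.309, 6.41 and 4.51 CPM in tumour and 0.682, 1.66 and 0.814 in non-tumour tissue. With the replicate number as a block, 0 members were called.

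In males, respiratory chain subunits were called about as often as genes at large. By edgeR, 17 of 88 members were higher and 1 lower in KO than in WT males (20.5%), against 20.6% of all genes called. The higher ones came from all 4 complexes. The median log2 fold change was 0.40 over nuclear members and 0.11 over all genes. Over mitochondrial members it was -0.13, but 0.13 with limma-voom, which also moved the median of all genes to 0.28. None of the mitochondrial members was called, the smallest adjusted p among them being 0.308 by edgeR. Called nuclear members were 7 higher and 1 lower of 35 in complex I, 1 of 8 in complex III, 5 of 15 in complex IV and 4 of 17 in ATP synthase.

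Cox7b had 244, 212 and 258 CPM in KO males, against 79.6, 92.8 and 66.2 in WT males. The highest WT value was well under the lowest KO value, and the log2 fold change was 1.58 ± 0.26 (SE; edgeR adjusted p = 0.000918). Uqcrb, a small complex III subunit at the quinone site (chr13:66900617-66905378), had 232, 196 and 211 CPM against 76.0, 94.3 and 60.8, as clearly apart (1.47 ± 0.26, SE; edgeR adjusted p = 0.00145). Ndufc2 had 50.7, 45.2 and 72.8 CPM in KO males and 14.4, 21.2 and 16.6 in WT males (1.70 ± 0.32, SE; edgeR adjusted p = 0.00198). Atp5c1, the gamma subunit that turns in the central stalk of ATP synthase (chr2:10056016-10080510), had 280, 234 and 338 CPM against 130, 94.4 and 89.8 (1.44 ± 0.28, SE; edgeR adjusted p = 0.00239). Ndufa10 had 214, 216 and 243 CPM against 95.3, 116 and 102 (1.10 ± 0.23, SE; edgeR adjusted p = 0.0046). None of these 5 genes had overlapping groups, and KO male 3, low in mitochondrial share, was the highest library for 4 of them.

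Uqcrb overlaps a gene on the opposite strand over 465 bases, and strand use in the counting is not given in the sources used here, so its reads may be shared. Of the 5, Cox7b, Uqcrb and Ndufc2 passed the threshold under all settings tried in this comparison. Ndufc2 overlaps a pseudogene on its own strand over 188 bases. Without KO male 3 and non-tumour 3 together, 8 members were higher and 3 lower. Without WT male 3, 8 were higher and 6 lower (Ndufa12, Ndufa2, Ndufa1, Ndufb7, Atp5k and Cox6b2).

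The member that was lower in KO males was Ndufa12, with 25.4, 26.0 and 23.7 CPM in KO and 48.1, 39.9 and 40.8 CPM in WT males. The groups were apart and each tight, with a log2 fold change of -0.78 ± 0.23 (SE; edgeR adjusted p = 0.0286). Its call was lost without KO male 1, 2 or 3, or without WT male 1. Ndufa4l2, a paralogue of Ndufa4 known to be induced by hypoxia, was called higher from low values. It had 32, 40 and 39 counts in KO males and 0, 9 and 0 counts in WT males, or 2.38, 2.92 and 2.21 CPM against 0, 0.644 and 0. WT male libraries thus held counts of this gene in 1 of 3, and the fitted log2 fold change (3.61 ± 0.93, SE; edgeR adjusted p = 0.0135) rests on these few counts.

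**Figure D3:**
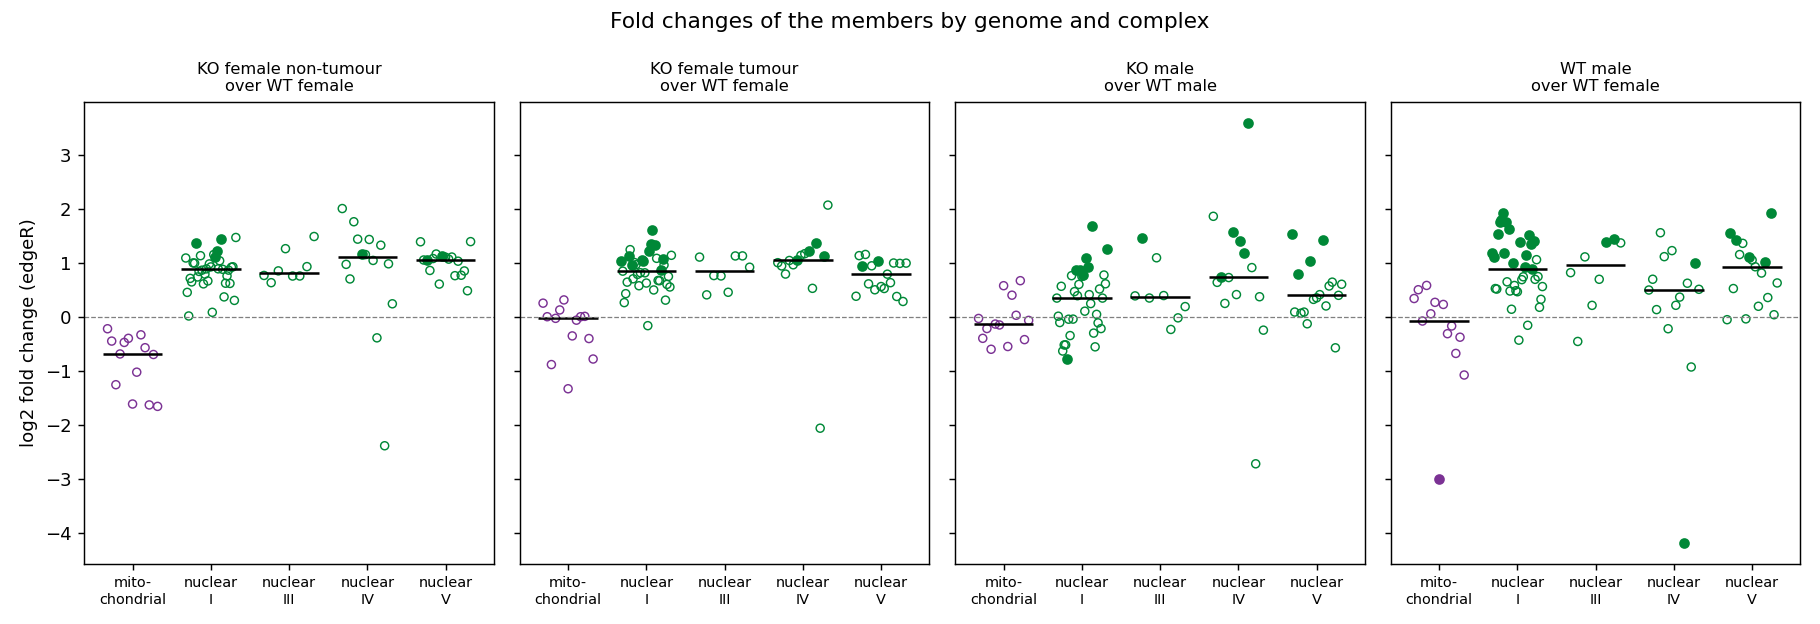
Each panel is 1 comparison, and each point the edgeR log2 fold change of 1 member, grouped by complex and by genome, with filled points past an adjusted p of 0.05 and bars at the group medians. Cox6a2, at 0 in WT females, is left out. Nuclear members sit mostly above 0 in the comparisons with WT females, with medians over all nuclear members of 0.93 for non-tumour and 0.95 for tumour tissue, where the medians over mitochondrial members are -0.68 and -0.02, the second being 0.02 with scaling on the non-mitochondrial genes.

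WT male and WT female libraries differed in these genes. Sex cannot be told apart here from the library differences of the WT males given above. By edgeR, 25 members were higher and 2 lower in WT males than in WT females (30.7% of 88), where 23.1% of all genes were called. The median was 0.82 over nuclear members, -0.12 over all genes and -0.07 over mitochondrial members, the last being 0.03 with DESeq2's size factors. Complex I held most of the calls, with 17 of its 35 nuclear members higher, beside 2 of 8 in complex III, 5 of 17 in ATP synthase, and 1 higher and 1 lower of 15 in complex IV. Without WT female 3 there were 2 calls, Ndufa12 and mt-Nd4l, and without WT male 3 there were 44.

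Ndufa12 had 48.1, 39.9 and 40.8 CPM in WT males, against 13.0 and 9.49 in WT females, with a log2 fold change of 1.94 ± 0.28 (SE; edgeR adjusted p = 0.000347). Both groups were narrow and far apart. Ndufa2, a small accessory subunit of the matrix arm (chr18:36742332-36744557), had 274, 256 and 131 CPM against 83.1 and 46.2 (1.77 ± 0.34, SE; edgeR adjusted p = 0.00262). Atp5k, subunit e of the ATP synthase dimer, had 126, 92.3 and 53.5 CPM against 30.9 and 16.8 (1.93 ± 0.38, SE; edgeR adjusted p = 0.00278). WT male 3 was the lowest male library for both, yet above both females. Ndufa1, an X-linked accessory subunit in the membrane arm, had 143, 120 and 57.2 CPM against 42.0 and 19.5 (edgeR adjusted p = 0.00562).

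Both members lower in WT males were mt-Nd4l and Ndufa4l2. The subunit mt-Nd4l, of the complex I membrane arm, had 56.1, 92.9 and 114 CPM in WT males, against 913 and 502 in WT females. The male values lay far below both female values, and the log2 fold change was -3.01 ± 0.48 (SE; edgeR adjusted p = 0.000753). Summed with the counts of its copy Gm10222, which took 41.6% to 72.4% of the sum in WT males and 10.3% and 22.0% in WT females, it was -1.87 ± 0.54 (SE; edgeR adjusted p = 0.0219). Ndufa4l2 had 0, 0.644 and 0 CPM in WT males, against 3.06 and 4.43 in WT females (edgeR adjusted p = 0.00754).

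The effect of the knockout differed between non-tumour females and males for 3 members by edgeR's interaction term (3.41% of 88, with 10.9% of all genes called). Ndufa12 was higher in KO than in WT females and lower in KO than in WT males, and the difference of the log2 fold changes was 2.15 ± 0.36 (SE; edgeR adjusted p = 0.00224). Its KO levels were similar in value, at 22.6 to 41.6 CPM in females and 23.7 to 26.0 in males, and the means of WT males and WT females lay above and below them. For Ndufa2, with 129, 131 and 130 CPM in non-tumour KO females and 159, 124 and 178 in KO males, the difference was 1.52 ± 0.44 (SE; edgeR adjusted p = 0.0384). Neither of its own contrasts passed, with 1.01 in females and -0.52 in males. Its call was kept without WT female 2, KO male 3 or WT male 3 and lost without any other single library of the 4 groups in this contrast. Ndufa2 overlaps Tmco6 on the opposite strand over 60 bases. For mt-Nd4l the difference was -2.20 ± 0.64 (SE; edgeR adjusted p = 0.0395). Summed with its copy it was -1.72 ± 0.73 and no longer passed (edgeR adjusted p = 0.137). For the gene alone, the call was kept without non-tumour 2, KO male 3 or WT male 3 and lost without any other single library of these 4 groups. Tumour libraries, which enter the shared spread, were not left out here.

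**Figure D4:**
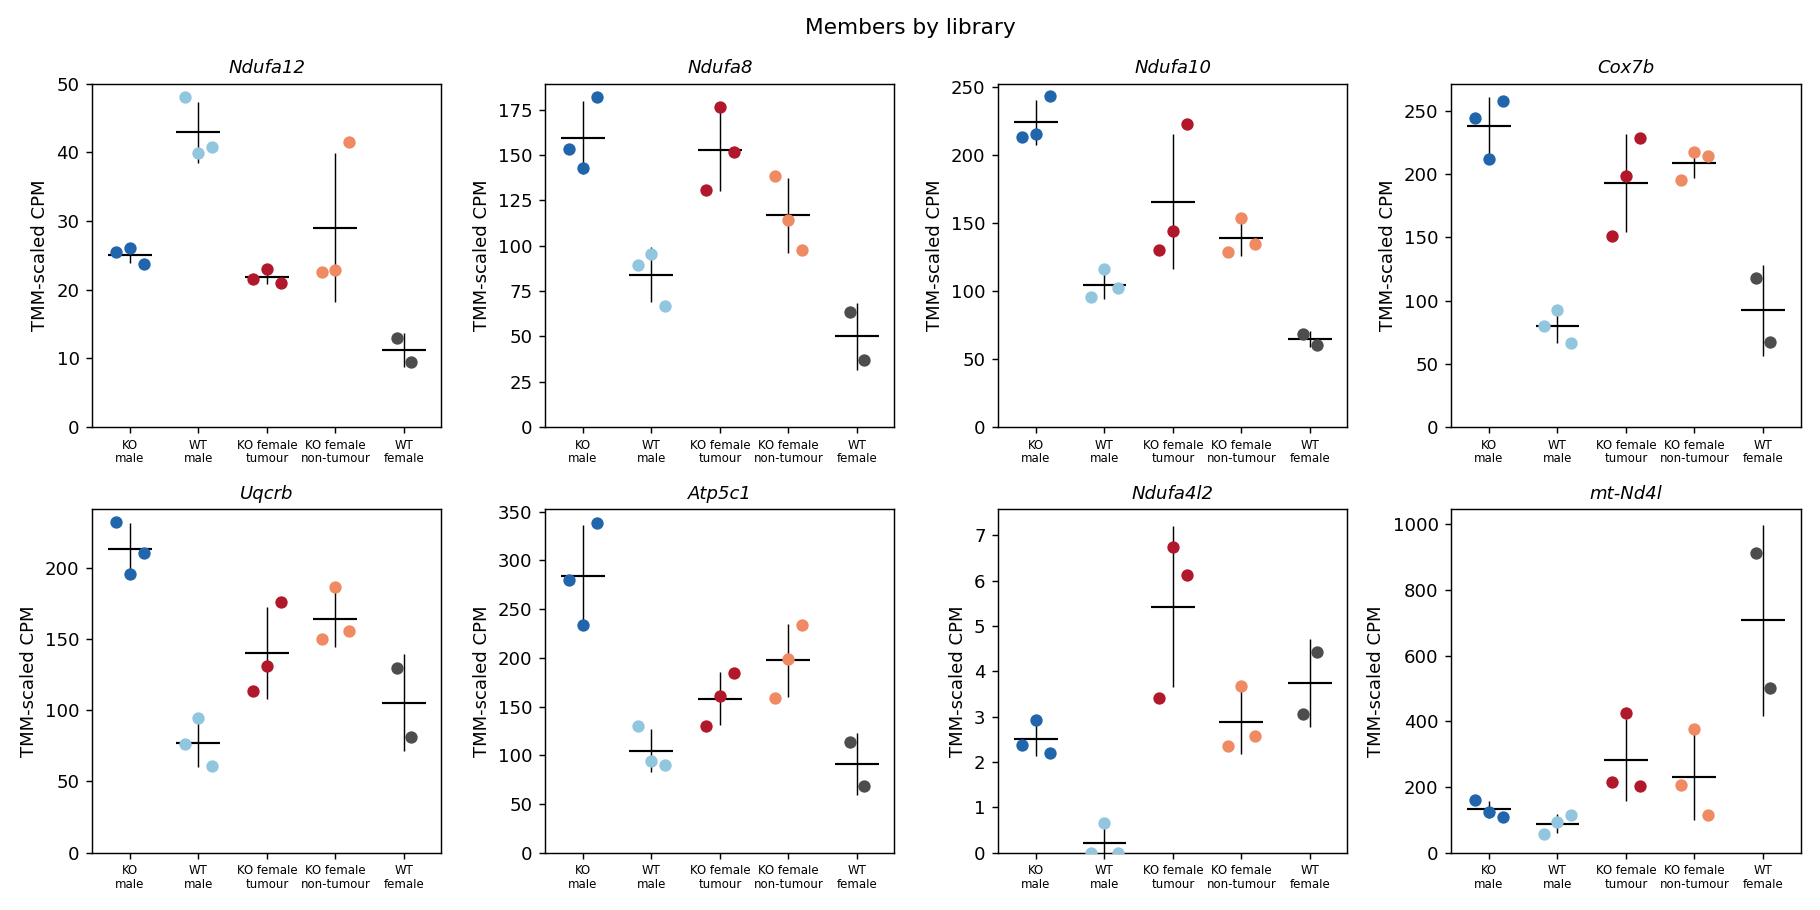
TMM-scaled CPM of 8 members in each library, with the mean ± SD of each group, 1 panel per gene. Ndufa12 lies at 39.9 to 48.1 in WT males and at 9.49 and 13.0 in WT females, with the means of all KO groups between them, while Cox7b and Uqcrb are high in KO males and low in WT males.

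Between KO males and non-tumour KO females 0 members were called by edgeR, where 0.392% of all genes were called. Unadjusted p was under 0.05 for 7 of 88 members and for 9.69% of all genes. DESeq2 called 1 member and 2.52% of all genes, and limma-voom 3 members and 3.92% of all genes. The smallest p was that of mt-Co3, with 1333, 811 and 592 CPM in KO males and 199, 523 and 161 in KO females. The groups did not overlap, and the log2 fold change was 1.63 ± 0.52 (SE; edgeR adjusted p = 0.232). Summed with its copy it was 1.42 ± 0.48 (SE; edgeR adjusted p = 0.282). The next were Ndufa10 (0.69 ± 0.23, SE), the membrane arm subunit Ndufa11 (0.67 ± 0.24) and mt-Nd3 (0.97 ± 0.38), followed by Ndufs8, a core subunit with iron-sulfur clusters (0.64 ± 0.27). The medians were 0.35 over nuclear and 0.52 over mitochondrial members, and -0.01 over all genes.

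Compared per kb over all libraries, the nuclear members spanned a wide range within each complex. In complex I they ran from 3.44 CPM per kb for the membrane arm subunit Ndufb2 to 258 for Ndufa2, with a median of 53.3. In complex III the range was 24.2 for Uqcrc2, a core subunit related to processing peptidases, to 380 for Uqcrq, a small subunit near cytochrome b, with a median of 151. In complex IV the highest was Cox6a1 at 449, and the median was 60.3. In ATP synthase the highest was Atp5h, a stator subunit, at 152, and the median was 65.7.

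Isoforms that are known mainly from muscle, heart or testis had low counts in these livers, and their general partners were far higher. Cox6a2 had at most 21 counts in any library and 0 in both WT female libraries, so no fold change is given for it, and without it the nuclear median of WT males against WT females was 0.79. Its partner Cox6a1 had 95.9 to 580 CPM. Cox8b had 0 to 12 counts, Cox8c 0, and Cox8a 46.6 to 396 CPM. Cox6b2 had 0 to 4.19 CPM, with 44 and 87 counts in WT females, Cox6b1 82.6 to 330, and Cox7b2 was listed at 0 beside Cox7b. The summed CPM of 7 striated muscle markers was at most 0.652 in all libraries, and all 7 were at 0 in WT males. The muscle isoform Cox7a1 had 5, 134 and 89 counts in tumour tissue. Per kb, Cox7a1 averaged 3.09, Cox7a2 100 and Cox7a2l, a factor of supercomplex assembly, 41.4. Ndufa4l2 averaged 2.64 per kb and Ndufa4 131. The genes for subunit c averaged 29.2 (Atp5g1), 37.2 (Atp5g2) and 106 (Atp5g3) per kb. Of these, Atp5g1 was higher by edgeR in both KO female tissues and in KO males, while Atp5g2 and Atp5g3 were called in none of the comparisons. Their mature proteins are the same, and reads from related genes and pseudogenes may be split between them.

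Genes that work beside the members gave further counts by the same edgeR test. Against WT females, it called 4.16% of all genes in non-tumour KO females, 9.61% in tumour tissue and 23.1% in WT males. In KO against WT males it called 20.6%. The 4 subunits of complex II, succinate dehydrogenase, were not called in either KO female tissue. All 4 log2 fold changes were positive in both, with a median of 1.015 in non-tumour (0.745 to 1.253) and 0.495 in tumour tissue. The interaction of non-tumour females and males called 0 of the 4 (median -0.137). In KO males against WT males 3 of 4 were higher, with log2 fold changes of 1.24 ± 0.33 for Sdhb (adjusted p = 0.0158), 1.18 ± 0.35 for Sdhc (0.0263) and 1.42 ± 0.45 for Sdha (0.0396), and 0.94 for Sdhd (0.17). Among cytochrome c and the subunits outside the name rule, Cox4i1 (1.26 ± 0.36, adjusted p = 0.0219) and Cycs (1.01 ± 0.31, adjusted p = 0.0297) were higher in WT males than in WT females, and no other call was made. Of 46 assembly factors tested, 0 were called in non-tumour KO females. In tumour tissue Uqcc2, Cox19 and Sdhaf1 were higher and the copper chaperone Cox17 lower. In KO males 6 were higher, led by Coa6, Tmem186 and Uqcc1.

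Cytosolic ribosomal protein genes, which belong to no respiratory complex, were set beside the members. Their median was 1.31 in non-tumour KO females against WT females, with 29 of 82 higher and 0 lower, and 0.96 in tumour tissue, with 19 higher. It was 0.06 in KO males against WT males, with 1 higher and 1 lower, and 1.15 in WT males against WT females, with 51 higher and 1 lower. So the median of the nuclear members lay below that of the ribosomal proteins in non-tumour KO females and above it in KO males. The values for the 77 mitochondrial ribosomal protein genes were 0.62 in non-tumour KO females (8 higher), 0.49 in tumour tissue (16 higher, 2 lower) and 0.27 in KO males (8 higher, 2 lower). Of all genes, 4.16%, 9.61% and 20.6% were called in these comparisons, and 23.1% in WT males against WT females.

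Of 17 regulators of mitochondrial genes, 2 were lower and 0 higher in non-tumour KO females, 4 lower in tumour tissue, and 3 higher and 3 lower in KO males. The shares of all genes called were 4.16%, 9.61% and 20.6% in the same order, and 23.1% in WT males against WT females. Ppara, a receptor that drives fatty acid oxidation, was lower in non-tumour KO females than in WT females (-2.14 ± 0.38, SE; edgeR adjusted p = 0.0118) and in tumour tissue (-2.23 ± 0.38, SE; edgeR adjusted p = 0.00342). Gabpb2, a partner of the ETS factor Gabpa, was lower in both tissues too. Ppargc1a, a coactivator of mitochondrial biogenesis, was higher in KO males than in WT males (2.62 ± 0.42, SE; edgeR adjusted p = 0.000857), while Tfeb and Nrf1 were lower. Of 35 genes for mitochondrial DNA and RNA, 2 were higher and 3 lower in KO males, where 20.6% of all genes were called. The polymerase subunit Polg2 was higher (1.98 ± 0.39, SE; edgeR adjusted p = 0.00289), as was Tfam, the packaging and transcription factor of mitochondrial DNA, and Tbrg4, Mgme1 and Elac2 were lower. Of this list 0 were called in non-tumour KO females, and Ptcd3 was lower in tumour tissue. In WT males against WT females, the regulators had 2 higher and 6 lower, among them Ppargc1a (-2.88 ± 0.45, SE; edgeR adjusted p = 0.000618). Of 16 antioxidant and transport genes, Prdx3, Vdac2 and Txn2 were among 4 higher in non-tumour KO females, Gpx4, Slc25a4 and Prdx5 among 4 in tumour tissue, and Vdac1 and Prdx3 among 7 in KO males, where Txnrd2 was lower.

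Markers of other cell types varied between the same groups, in part with overlap. Summed over 5 genes, cholangiocyte markers had 603 to 1358 CPM in tumour and 408 to 635 in non-tumour tissue of KO females, against 149 and 289 in WT females. In males they had 52.5 to 324 CPM in KO and 58.7 to 79.8 in WT livers. Most of each sum was Spp1, with 302 CPM in KO male 2. By edgeR, the log2 fold changes of KO over WT males were negative for 3 of the 5 genes, with 1 called lower, and positive for 2. Macrophage markers, 7 genes, had 124 to 281 CPM in tumour and 193 to 369 in non-tumour tissue, against 97.2 and 113 in WT females. In males these had 123 to 230 CPM in KO and 124 to 191 in WT livers. Hepatocyte markers had 54200 to 84750 CPM in tumour and 58340 to 89340 in non-tumour tissue, against 49470 and 50010 in WT females. T and B cell markers reached 360 CPM in 1 WT male library and at most 45.2 outside that group. Adipocyte markers, 5 genes, had 70.2 to 389 CPM in tumour and 25.2 to 60.9 in non-tumour tissue, against 10.2 and 10.6 in WT females. In males these had 48.0 to 67.8 CPM in KO and 77.1 to 159 in WT livers. Fabp4 and Cidec made up nearly all of these sums. Lep was at 0 in every library, and Adipoq and Plin1 had at most 0.542 CPM in any. Stellate cell and fibroblast markers, 6 genes, had 219 to 707 CPM in tumour and 239 to 349 in non-tumour tissue, against 152 and 210 in WT females, and 87.5 to 259 CPM in KO and 146 to 269 in WT males. Erythroid markers, 4 genes, reached 326 CPM in WT males and at most 137 in the other groups. Endothelial markers, 6 genes, had 69.8 to 81.4 CPM in KO males, below the 121 to 181 in WT males. The part of these cells in the values of the members was not tested.

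The promoters of nuclear members held motifs known from nuclear respiratory genes in a larger share than promoters at large. A RefSeq promoter (250 bases before to 50 after the start, GRCm38.p6) was matched for 64 of the 79. The core of the NRF1 motif, GCGCANGCG, was found on either strand in 17 of 64 (26.6%), against 6.2% of all 32851 promoters. For YY1 (AANATGGCG) the count was 8 (12.5%, against 2.4%), for GABPA (CCGGAAGT) 5 (7.8%, against 3.9%) and for the estrogen-related receptors (TCAAGGTCA) 1 (1.6%, against 0.4%). The members' promoters averaged 57.3% G and C, against 53.8% in all. No motif was found in 37 members. A match is a run of letters and not a bound site.

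The 5 promoters shown were chosen to set Ndufa12, whose searched window holds none of the 4 motifs, beside 4 genes with an NRF1 core. Of the 64 matched promoters, 37 held none, so this does not set Ndufa12 apart. Its window holds gcgcctgcg, which differs from the NRF1 core only by c in place of A. That window begins downstream of the gene start given above, so bases before that start were not searched. Whether motifs bear on the opposite directions of Ndufa12 in the sexes was not tested. Capitals mark the NRF1 letters. In Ndufa8 there are 2 matches, the first starting 29 bases before the start of transcription. In Ndufa5, Atp5k and Ndufs5 the matches begin 26, 50 and 98 bases before it, and in Atp5k the run reads as a match on both strands.
Ndufa12 promoter, chr10:94198785-94199084, plus strand: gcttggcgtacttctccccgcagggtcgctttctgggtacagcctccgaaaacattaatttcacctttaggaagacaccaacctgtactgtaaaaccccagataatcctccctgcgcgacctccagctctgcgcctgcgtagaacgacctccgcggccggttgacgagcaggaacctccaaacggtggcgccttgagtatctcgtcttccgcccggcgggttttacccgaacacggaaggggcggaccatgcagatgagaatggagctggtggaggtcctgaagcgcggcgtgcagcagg
Ndufa8 promoter, chr2:36049289-36049588, minus strand: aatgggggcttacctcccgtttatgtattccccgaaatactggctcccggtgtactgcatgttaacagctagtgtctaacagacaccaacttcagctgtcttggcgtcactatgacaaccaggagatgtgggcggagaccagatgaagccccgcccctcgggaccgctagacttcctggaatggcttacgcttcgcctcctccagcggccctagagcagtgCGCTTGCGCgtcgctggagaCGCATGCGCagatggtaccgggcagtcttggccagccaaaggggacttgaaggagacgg
Ndufa5 promoter, chr6:24527641-24527940, minus strand: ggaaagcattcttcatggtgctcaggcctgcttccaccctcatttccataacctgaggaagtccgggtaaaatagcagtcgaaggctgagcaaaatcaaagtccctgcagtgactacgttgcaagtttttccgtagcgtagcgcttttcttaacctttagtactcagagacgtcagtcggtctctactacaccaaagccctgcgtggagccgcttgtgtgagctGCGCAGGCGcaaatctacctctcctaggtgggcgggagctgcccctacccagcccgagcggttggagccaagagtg
Atp5k promoter, chr5:108434350-108434649, minus strand: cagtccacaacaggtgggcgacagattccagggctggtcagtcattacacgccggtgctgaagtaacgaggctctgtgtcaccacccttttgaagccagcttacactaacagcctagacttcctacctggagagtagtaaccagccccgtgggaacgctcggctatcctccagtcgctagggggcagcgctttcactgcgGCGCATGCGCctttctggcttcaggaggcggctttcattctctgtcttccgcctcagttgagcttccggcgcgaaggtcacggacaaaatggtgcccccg
Ndufs5 promoter, chr4:123718137-123718436, minus strand: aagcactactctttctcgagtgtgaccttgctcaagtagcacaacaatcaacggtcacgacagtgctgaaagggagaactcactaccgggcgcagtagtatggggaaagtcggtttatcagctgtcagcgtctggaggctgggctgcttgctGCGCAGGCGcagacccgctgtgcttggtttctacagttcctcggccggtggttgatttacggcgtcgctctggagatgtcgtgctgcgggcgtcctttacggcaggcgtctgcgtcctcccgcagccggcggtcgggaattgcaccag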

How the data were processed

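The 14 RNA-seq libraries of mouse liver were analysed from 1 table of all genes. Reads were mapped with HISAT2 2.0.5 to GRCm38 and counted per gene with featureCounts 1.5.0-p3, per the submitters' processing notes. The authors deposited whole-number counts and FPKM values per gene and library. The deposited counts were tested, and the deposited FPKM values entered no result. Strand use, multi-mapping and the annotation version are not given in the sources used here.

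The members and gene lists were chosen with earlier results of these data known. Counts were fitted over all 14 libraries and 5 groups with edgeR 4.0.16 (quasi-likelihood test, TMM scaling, filterByExpr, robust; R 4.3.3), with Benjamini-Hochberg adjustment over all 17874 genes tested and a threshold of 0.05. The SE of a log2 fold change is its size divided by the square root of F. TMM-scaled CPM are given per library, and per kb of the deposited gene length. Members are named by rule: all mitochondrial ones, up to 5 called nuclear ones per direction and comparison by smallest p (4 where none was called), the highest and lowest per kb of each complex, and tissue-restricted isoforms with their partners. Of the other lists, up to 3 called genes are named per list and comparison. Genes named beyond this, and the sums of mt-Nd4l and mt-Co3 with their copies, were chosen after their values were seen. A gene the naming rule gives is not reported here. The fit was also run on simulated data with larger changes than most members show and less spread between libraries. That run checks the code and does not show the power of the test in these data.

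Same-numbered tumour and non-tumour libraries deviated together (correlations 0.469, 0.374 and 0.319 over 10268 genes), so these numbers were taken as possible pairs. The main fit nevertheless held no block, so its SE and p-values treat these libraries as independent. The replicate number entered as a block only in an alternative fit. That alternative was also run for the other comparisons, whose numbers were not taken as pairs. Differently numbered tumour and non-tumour libraries correlated at -0.409 to 0.04. Libraries of different mice reached like values, 0.405 for KO male 3 with non-tumour 3 and 0.41 for KO male 2 with WT male 3. The check thus cannot show that a pair shares an animal. No replicate pair agreed within sampling noise (chi-square per degree of freedom 23.6 to 201.8), and no label gives a batch. Alternatives were other scalings, filters and samples, DESeq2 1.42.0 and limma-voom (limma 3.58.1). GENCODE vM21 and RefSeq gave coordinates and sequences. All 92 members matched GENCODE by ID, and 45 overlap another gene, where unstranded reads could be shared. Intervals and p-values cover these libraries only.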

Additional observations from a re-analysis of the deposited data

Results flagged for a closer look

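The knockout effect differed between non-tumour females and males for Ndufa12, Ndufa2 and mt-Nd4l, by a test of the difference itself, edgeR's interaction term over all 17874 genes. For Ndufa12 the log2 fold change of KO over WT was larger in females by 2.15, with 3 of 3 non-tumour KO libraries above both WT females and 3 of 3 KO males below all WT males. It kept its call under all settings tried. For Ndufa2 the difference was 1.52. Its levels were even among non-tumour KO females, and its WT male values were 274, 256 and 131 CPM, so WT male 3 lay within the range of KO males. For mt-Nd4l the difference was -2.20, and -1.72 after its counts were summed with those of its chromosome 1 copy, where it was no longer called (edgeR adjusted p = 0.137). What library differences of the WT males contribute to these 3 values was not tested.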

How the results depend on the processing

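The counts of called members depended on settings more than their directions did. Of 72 single-gene results past the threshold, 0 reversed under any setting, 6 stayed past it under all settings and 66 lost the call under at least 1. Those 6 were Cox7b, Ndufc2 and Uqcrb in KO against WT males, Ndufa12 in the interaction and in WT males against WT females, and mt-Nd4l in WT males against WT females.

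In non-tumour KO against WT females the 7 called members became 12 with upper-quartile scaling, 34 with no filter, 38 with DESeq2, 51 with limma-voom, 11 with the 2 groups alone and a replicate block, and 0 without KO male 3 and non-tumour 3. In tumour KO against WT females the 17 became 33 with no filter, 32 with DESeq2, 44 with limma-voom, 10 with the groups alone and 42 with a replicate block. In KO against WT males the 18 became 3 with a replicate block and 11 without KO male 3 and non-tumour 3, a setting chosen after seeing the data. The 3 of the interaction became 5 with upper-quartile scaling, 13 with no filter, 10 with DESeq2, 11 with limma-voom and 1 with a replicate block. Of all genes, DESeq2 called 10.8% in non-tumour KO against WT females, 16.8% in tumour KO against WT females and 17% in the interaction. The limma-voom shares were 18.8%, 25.9% and 18.5% in the same order. Shares of all genes under the other settings are not given here, so those counts have no background beside them. In WT males against WT females the 27 became 14 with the groups alone and 16 with a replicate block. Tumour against non-tumour tissue had 2 calls with no filter, and KO males against non-tumour KO females 1 with no filter, 1 with DESeq2 and 3 with limma-voom. Only tumour and non-tumour numbers were taken as possible pairs, and there the replicate block gave 0 calls, as the main fit without a block did. The causes were not tested.

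Leaving out 1 library at a time, calls ran from 0 to 7 in non-tumour KO against WT females, 0 to 15 in tumour KO against WT females, 11 to 19 in KO against WT males, 1 to 15 in the interaction (15 without WT male 3), 2 to 44 in WT males against WT females, and 0 throughout in tumour against non-tumour tissue and in KO males against non-tumour KO females. The mitochondrial minus nuclear difference ran from -2.17 to -1.44, -1.33 to -0.79, -0.79 to -0.03, -1.75 to -0.91, -1.35 to -0.74, 0.38 to 1.11 and -0.11 to 0.74 in the same order. With the median over members it was -0.50 in tumour KO against WT females, -0.73 in the interaction and -0.52 in WT males against WT females. Counts limit what can be said of Cox6a2, Cox8b, Cox7a1, Cox6b2 and Ndufa4l2, and nuclear copies limit mt-Co2, mt-Atp6, mt-Co3, mt-Nd3 and mt-Nd4l. The members with copies also enter the mitochondrial minus nuclear difference and the mitochondrial medians.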
